A study of Mus musculus with 28 samples.

Results

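The comparison described here set hippocampal gene expression of cbp+/- mice against that of wild-type littermates after trichostatin A (TSA) in standard housing. Its 6 arrays, replicates 1 to 3 of each genotype under this treatment by their labels, were taken from the 28 arrays of the series, and cbp+/- replicate n was set against wild-type replicate n. All mice were 3-month-old females, F1 hybrids of the C57 and DBA strains. Both groups received TSA at 2.4 mg/kg into the peritoneum, stayed in their home cages and were sampled 75 min later, so neither group was free of the drug. Each array held pooled RNA of 3 to 4 mice (4 by the extraction protocol), and the spread between arrays is therefore a spread between pools. The labels name neither the disrupted allele nor the cells in which it is disrupted, and "cbp+/-" below means the arrays so labelled. The same genotype contrast was available in 22 arrays that share none of these 6: after 1 h of novelty with vehicle (6 arrays), after 1 h of novelty begun 15 min after TSA (6 arrays), in standard housing with vehicle (6 arrays) and in naive mice (4 arrays). In the novelty groups a mouse was placed alone in an unfamiliar box with toys.

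CBP, encoded by Crebbp, is a transcriptional coactivator that binds phosphorylated CREB and other activators and acetylates histones. Its close relative p300, encoded by Ep300, shares these activities. TSA blocks the zinc-dependent histone deacetylases, the enzymes that remove acetyl groups, so the comparison asks how mice labelled as carrying a disrupted copy of an acetyltransferase gene differ from littermates while deacetylation is inhibited. In the hippocampus CBP is best known for activity-dependent transcription and long-term memory, and loss of a copy of the human gene causes Rubinstein-Taybi syndrome.

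The targeted gene did not read lower in cbp+/-. On the log2 scale used throughout, where a difference of 1 is a 2-fold ratio, Crebbp stood at 9.19, 9.42 and 8.68 in wild-type replicates 1 to 3 and at 9.75, 9.74 and 9.06 in cbp+/- replicates 1 to 3. The cbp+/- array was the higher of every pair, although the groups overlapped because both arrays of replicate 3 were low. The difference was 0.42 ± 0.12 (SE; 95% interval 0.16 to 0.68), from limma's moderated test with the replicate number as a block, with an unadjusted p of 0.0032 that did not pass Benjamini-Hochberg adjustment over all genes. Crebbp was also the higher one in cbp+/- in the other genotype contrasts, by 0.15 after novelty with vehicle, 0.18 after novelty with TSA, 0.14 with vehicle in standard housing and 0.07 in naive mice. Neither labels nor protocols say which part of the gene the disrupted allele lacks, so a probe set that spans the transcript does not check the genotype labels. The direction of every difference below rests on those labels.

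No gene passed the test between genotypes under TSA. Of 19938 named genes, 0 (0%) had an adjusted p under 0.05 in limma, and the lowest adjusted p was 0.816. At an unadjusted p under 0.05 there were 1152 genes (5.78%), of which 577 (2.89%) were higher and 575 (2.88%) lower in cbp+/-. The differences were small: 99% of genes differed by less than 0.34 log2, 20 genes by at least 0.5, and the median SE of a difference was 0.105. In data simulated at this size, 200 genes were changed by the same amount. The test recovered 0% of changes of 0.3 log2, 59% of changes of 0.5 and 97% of changes of 1. It also called 0, 2 and 13 unchanged genes. A change of 0.3 was thus not detected, and changes in fewer genes were not simulated. The count at unadjusted p under 0.05 rested on particular arrays. It was 529 without cbp+/- replicate 2, 535 without wild-type replicate 2 and 2660 without wild-type replicate 3, each with 0 genes past the adjusted threshold. The 3 pairs also disagreed across genes: the differences of pairs 1 and 2 correlated at 0.27, those of pairs 1 and 3 at -0.15 and those of pairs 2 and 3 at -0.24 over the 19938 genes, which are not independent replicates. With limma's array quality weights 15 genes passed, 10 higher and 5 lower. These weights put 2.91 on wild-type replicate 1 and 2.74 on cbp+/- replicate 1, against 0.52 to 0.86 on the other 4 arrays, and so rest mostly on pair 1.

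The list of CBP, p300 and other lysine acetyltransferases, which includes Crebbp itself, lay on the same side. All 17 measured members were higher in cbp+/-, with a median difference of 0.132. The median over all genes was -0.011, and 9261 of 19938 genes were higher. In 10 of the 17 the cbp+/- array was higher in all 3 pairs, against 2138 (10.7%) of all genes. None passed adjustment, and 6 (35.3%) had an unadjusted p under 0.05, against 5.78% of all genes. Crebbp is counted in both the 10 and the 6. Ep300 measured 8.43, 8.33 and 7.78 in wild type and 8.77, 8.57 and 7.91 in cbp+/-, a difference of 0.24 ± 0.11. Kat2b encodes PCAF, a coactivator acetyltransferase that binds CBP and p300. Its values were 5.60, 5.38 and 5.39 in wild type and 5.78, 5.78 and 5.75 in cbp+/-. Those groups did not overlap, and the difference was 0.31 ± 0.12. Kat6b, a histone H3 acetyltransferase, was 0.28 ± 0.10 higher, and Taf1, the largest subunit of the general transcription factor TFIID, 0.25 ± 0.10. The list's median was 0.139 in pair 1, 0.305 in pair 2 and 0.018 in pair 3, and it was 0.079 without replicate 2. In arrays outside the comparison it was -0.008 after novelty with vehicle, 0.099 after novelty with TSA, 0.08 with vehicle in standard housing and -0.06 in naive mice.

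**Figure D1:**
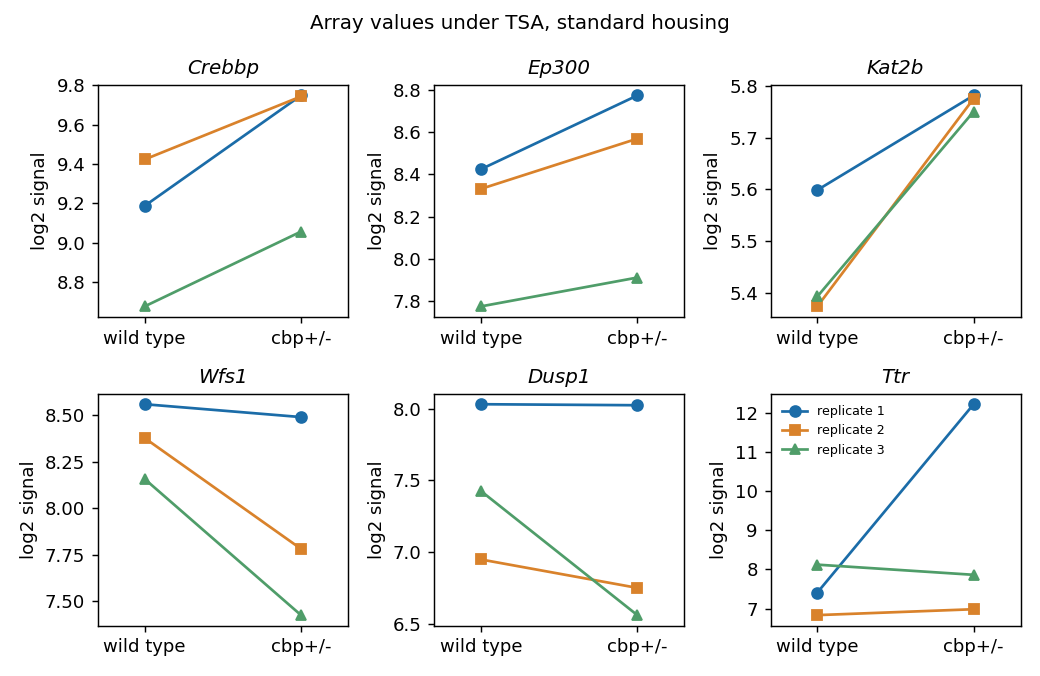
Log2 signal (vertical axes, each with its own range) of 6 genes on the wild-type and cbp+/- arrays under TSA in standard housing; lines join arrays with the same replicate number. Crebbp, Ep300 and Kat2b were higher in cbp+/- in every pair and Wfs1 and Dusp1 lower in every pair, while Ttr stood apart only on cbp+/- replicate 1, at 12.21.

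Enzymes on the list of lysine methyltransferases and demethylases leaned the same way in pairs 1 and 2. Of 39 measured, 32 were higher in cbp+/-, 15 of them in all 3 pairs (38.5%, against 10.7% of all genes). The median was 0.098, but the pair medians were 0.13, 0.153 and -0.005. Only 3 members (7.69%) had an unadjusted p under 0.05, near the 5.78% of all genes. The list's median was 0.02 in the novelty arrays with vehicle and -0.01 in those with TSA. It was 0.039 with vehicle in standard housing and -0.067 in naive mice. Carm1, a coactivator-associated methyltransferase of arginines, differed by 0.25 ± 0.10 and Kdm5a, a demethylase of histone H3 lysine 4, by 0.24 ± 0.12. Kdm6a, a demethylase of histone H3 lysine 27, differed by 0.30 ± 0.15 with pair 3 reversed. Histone genes lay slightly below zero, with 25 of 35 lower (53.5% of all genes were), a median of -0.048 and 2 (5.71%) at an unadjusted p under 0.05, near the 5.78% of all genes. The linker histone gene H1f5 was lower in every pair, with differences of -0.29, -0.30 and -0.34. The 11 classical deacetylases, the targets of TSA, had a median of -0.064 with 0 at an unadjusted p under 0.05. Hdac1 differed by 0.03 ± 0.09, Hdac2 by 0.13 ± 0.15 and Hdac11 by -0.21 ± 0.13. The 12 members of the CREB family and its coactivators had a median of 0.006, with Creb1 at 0.02 ± 0.09, Crem at 0.03 ± 0.10 and Atf4 at -0.22 ± 0.14. Genes beside Crebbp on its chromosome showed no common offset: of 43 measured, 19 were higher and 24 lower, with a median of -0.022 and 1 (Zfp597, 0.23 ± 0.11) at an unadjusted p under 0.05.

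The 8 genes with the smallest p among those higher in all 3 pairs of cbp+/- arrays, given as values that did not pass, were Eogt, Aatf, Pcdhb10, Pltp, Rbbp6, Tmem267, Dusp11 and Ptpn2. Eogt encodes a glycosyltransferase that adds N-acetylglucosamine to secreted and membrane proteins. It measured 6.70, 6.35 and 6.38 in wild type and 7.26, 6.83 and 6.62 in cbp+/-, a difference of 0.43 ± 0.09. Dusp11 encodes an RNA 5'-phosphatase, and its groups were well apart, at 7.50, 7.33 and 7.21 in wild type and 7.96, 7.90 and 7.78 in cbp+/-. Its pair differences were 0.46, 0.57 and 0.57. Rbbp6, a ubiquitin ligase that binds the retinoblastoma protein, did not overlap either, with 7.58, 7.15 and 7.74 against 8.03, 7.82 and 7.96. Ptpn2, a tyrosine phosphatase of cytokine signalling, had non-overlapping groups at 6.06, 6.16 and 6.635 against 6.73, 6.64 and 6.76, although only just. Non-overlap with cbp+/- above wild type was found in 297 genes (1.49%) and below it in 553 (2.77%). The transcription regulator Aatf differed by 0.50 ± 0.11, the phospholipid transfer protein gene Pltp by 0.37 ± 0.09 and Tmem267, a membrane protein gene, by 0.54 ± 0.13.

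Among genes lower in all 3 pairs (2472 genes, 12.4%), the 8 with the smallest p were Fxyd7, Sstr1, Lrrc75b, Wfs1, Car8, Mettl24, Epop and Gadd45a. Fxyd7, a brain regulator of the sodium-potassium pump, measured 7.84, 7.07 and 7.93 in wild type and 7.54, 6.62 and 7.25 in cbp+/-, a difference of -0.48 ± 0.10. Replicate 2 was low in both genotypes, so the groups overlapped although every pair differed the same way. Sstr1, a somatostatin receptor, differed by -0.41 ± 0.09 and Gadd45a, a stress-induced gene linked to DNA demethylation, by -0.44 ± 0.11. Car8, a carbonic anhydrase relative that binds the IP3 receptor, had non-overlapping groups at 5.85, 5.69 and 5.96 against 5.64, 5.10 and 5.58. Lrrc75b, a leucine-rich repeat gene, was separated by a narrow margin, at 6.57, 6.81 and 6.21 against 6.10, 6.209 and 6.01. Epop, a partner of the repressive complex PRC2, differed by -0.43 ± 0.11, with most of it in pair 2 at -0.83. All 16 genes have unadjusted limma p values between 7.86e-05 and 0.00108, and an adjusted p of at least 0.816.

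**Figure D2:**
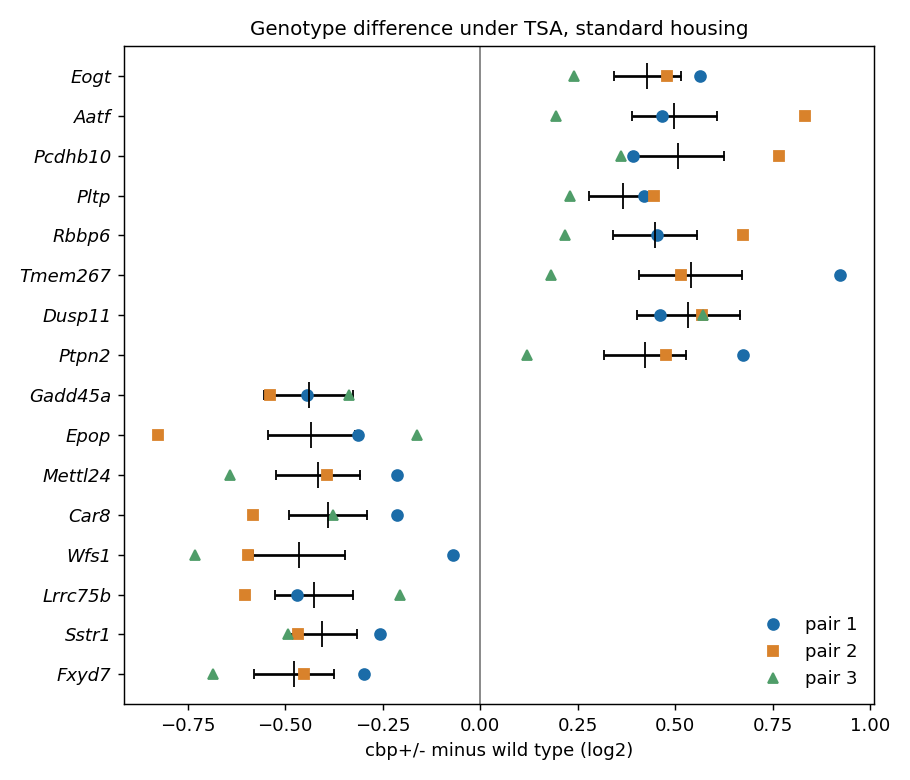
Genotype difference (cbp+/- minus wild type, log2) under TSA in standard housing for the 8 higher and 8 lower genes with the smallest p and 1 sign in the 3 pairs; symbols are the 3 pairs, the black tick is the mean and the bar its SE from limma. The genes were chosen for 1 sign, so their position on 1 side of zero is set by the choice; the pairs of Dusp11 lie close together (0.46 to 0.57) and those of Wfs1 far apart (-0.07 to -0.73).

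Wfs1 encodes an endoplasmic reticulum membrane protein that marks CA1 pyramidal neurons in the hippocampus. It measured 8.56, 8.38 and 8.16 in wild type and 8.49, 7.78 and 7.43 in cbp+/-, a difference of -0.47 ± 0.12. Its cbp+/- arrays of replicates 2 and 3 were below every wild-type array, while the 2 arrays of replicate 1 were nearly equal. The same gene was lower in cbp+/- in each of the 4 comparisons that use other arrays, with -0.44 after novelty with vehicle, -0.42 after novelty with TSA, -0.38 with vehicle in standard housing and -0.22 in naive mice. Averaged over both novelty groups the difference was -0.43 ± 0.08, with an adjusted limma p of 0.098. Of the 10 measured CA1 markers, Wfs1 included, 9 were lower under TSA (53.5% of all genes were), 4 of them in all 3 pairs. The CA1 list had a median of -0.106, which was -0.178 without replicate 1 and -0.107 without replicate 2, and 3 members (30%, against 5.78% of all genes) had an unadjusted p under 0.05. Lamp5, on the list of neighbouring neocortex, thalamus and striatum genes, varied over the pairs much as Wfs1 did. Lamp5 gave 0.19, -0.57 and -0.62 in pairs 1 to 3, where Wfs1 gave -0.07, -0.60 and -0.73. It was lower in the 4 other comparisons too (-0.40 ± 0.09 in the novelty average). Other members of that list with large differences were mixed. Lef1 gave 0.14, -0.47 and -0.45, but Drd1 gave -0.23, -0.41 and -0.15, and Tac1 0.29, 0.27 and 0.21. The list of neighbouring neocortex, thalamus and striatum genes had pair medians of 0.17, -0.106 and -0.21, and the part of such tissue in the Wfs1 and CA1 values was not tested. Mpped1, a phosphoesterase gene of pyramidal neurons, measured 10.30, 9.76 and 9.48 in wild type and 9.94, 9.44 and 9.40 in cbp+/-. Dcn, which encodes the matrix proteoglycan decorin and is also on the list of meningeal and fibroblast genes, measured 9.02, 8.78 and 9.77 against 8.68, 8.30 and 9.41. For the CA1 list the median was -0.241 after novelty with vehicle, -0.177 after novelty with TSA, -0.085 with vehicle in standard housing and -0.073 in naive mice. In bulk tissue, fewer cells of a type and less RNA per cell cannot be told apart. Markers of CA3 and CA2 had a median of -0.003 and dentate granule markers one of 0.105, with pair medians of 0.145, 0.096 and -0.076. Mean levels on the 6 arrays were 8.53 to 9.03 for the CA1 list, 7.70 to 7.84 for the CA3 and CA2 list and 7.17 to 7.47 for the dentate list. The median of all probe sets was 5.47 to 5.61. Markers of neighbouring tissue also lay above that median, with wild-type means of 7.90 for Lamp5 and 6.70 for Drd1. These levels therefore do not check the tissue label.

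Genes with the same sign in all 5 genotype comparisons were then counted, a rule chosen after values were seen. Of all tested genes 1689 (8.47%) had 1 sign throughout, and of the 190 genes (0.953%) with an unadjusted p under 0.01 and 1 sign in the 3 pairs, 36 (0.181% of all genes) did. Of these 36, 16 were higher and 20 lower in cbp+/-. Cacna1g, a T-type calcium channel gene, differed by -0.30 ± 0.09 under TSA in standard housing and by -0.34, -0.27, -0.30 and -0.34 after novelty with vehicle, after novelty with TSA, with vehicle and in naive mice. Psrc1, a microtubule-associated protein gene, had pair differences of -0.22, -0.24 and -0.25 under TSA. In the same order of other comparisons Psrc1 gave -0.39, -0.24, -0.19 and -0.27. On the other side were Firre, a long noncoding RNA of nuclear organisation, at 0.34 ± 0.09 under TSA and 0.24, 0.25, 0.34 and 0.12 elsewhere, and Zc3hav1, an antiviral RNA-binding protein gene, at 0.30 ± 0.09 and 0.21, 0.27, 0.31 and 0.33. The contrast in naive mice, with 2 arrays per genotype, ran against that under TSA over all genes: the differences correlated at -0.32 over 19938 genes, where those with vehicle in standard housing correlated at 0.4 (genes are not independent replicates). Of the 1152 genes with an unadjusted p under 0.05, 28% had the same sign in naive mice, 47.6% after novelty with vehicle, 78% after novelty with TSA and 80.6% with vehicle in standard housing, where all tested genes gave 37.5%, 46.6%, 61.1% and 63.1%.

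**Figure D3:**
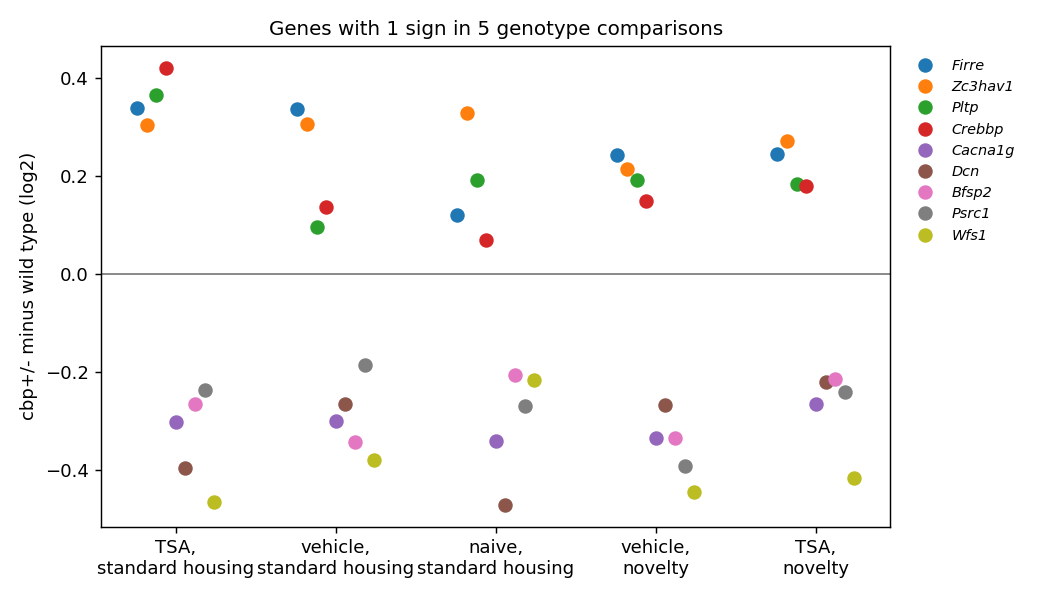
Genotype difference (cbp+/- minus wild type, log2) of 9 of the 36 genes in 5 comparisons that share no arrays (3 arrays per genotype, 2 in naive mice). Points are differences of group means and have no error bars; Firre, Zc3hav1, Pltp and Crebbp are above zero and Cacna1g, Dcn, Bfsp2, Psrc1 and Wfs1 below it in all 5, which is how they were chosen.

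The 12 novelty arrays hold the same genotype contrast in other pools. They carry the replicate numbers 1 to 3 as well, and the block takes out what is common to a number. Taken singly, no other genotype comparison had a gene past adjustment. After novelty with vehicle 0 genes (0%) passed and 1256 (6.3%) had an unadjusted limma p under 0.05, after novelty with TSA 0 (0%) and 1222 (6.13%), and with vehicle in standard housing 0 (0%) and 279 (1.4%), the last from a fit without the block. Averaged over both novelty groups, 2 of 19938 genes (0.01%) passed: Nlrp5-ps, a pseudogene, was 0.59 ± 0.08 higher in cbp+/- (adjusted p = 0.0098) and Pygm, the muscle-type glycogen phosphorylase found in astrocytes, was lower with a difference of -0.39 ± 0.06 (adjusted p = 0.0098). Neither call held without the replicate block or when the arrays of replicate 1, 2 or 3 were left out (0 genes each). Under TSA in standard housing both had the same sign in all 3 pairs: Nlrp5-ps by 0.02, 0.57 and 0.18, and Pygm by -0.02, -0.13 and -0.22. At an unadjusted p under 0.001 the novelty average held 69 genes (0.346%), 58 of them lower (0.291%) and 11 higher (0.0552%) in cbp+/-; at an unadjusted p under 0.05 it held 1652 (8.29%). Of the 69, 63 (91.3%) had the same sign under TSA in standard housing, 29 of them in all 3 pairs. Of all tested genes 54.5% agreed in sign with the novelty average, and 10.7% were higher and 12.4% lower in all 3 TSA pairs. These shares are not like for like, since the 69 were chosen for a small p in the novelty average. The differences of the 69 under TSA in standard housing were smaller, with a median of 0.15 in the direction of the novelty average against a median size of 0.36 there. Igfbp4, which encodes a binding protein of insulin-like growth factors, differed by -0.41 ± 0.10 after novelty and by -0.32, -0.28 and -0.45 in the 3 TSA pairs. Acaa2, a mitochondrial thiolase of fatty acid oxidation, differed by -0.42 ± 0.07 after novelty and by -0.26 ± 0.10 under TSA. For S100a10, an annexin partner, the values were -0.35 ± 0.07 and 0.03 ± 0.09. Tests of the difference between comparisons made no call: 0 genes (0%) passed for the genotype difference under TSA in standard housing against that after novelty with TSA, with 480 (2.41%) at an unadjusted p under 0.05, and 0 (0%) for that under TSA against that under vehicle in standard housing, with 107 (0.537%). This last count comes from the fit to 24 arrays without a block and is not comparable with the one before it. With array sets found in the data as a block it was 0 genes, with 405 at an unadjusted p under 0.05. A p that misses the threshold does not show that the genotype differences were equal.

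**Figure D4:**
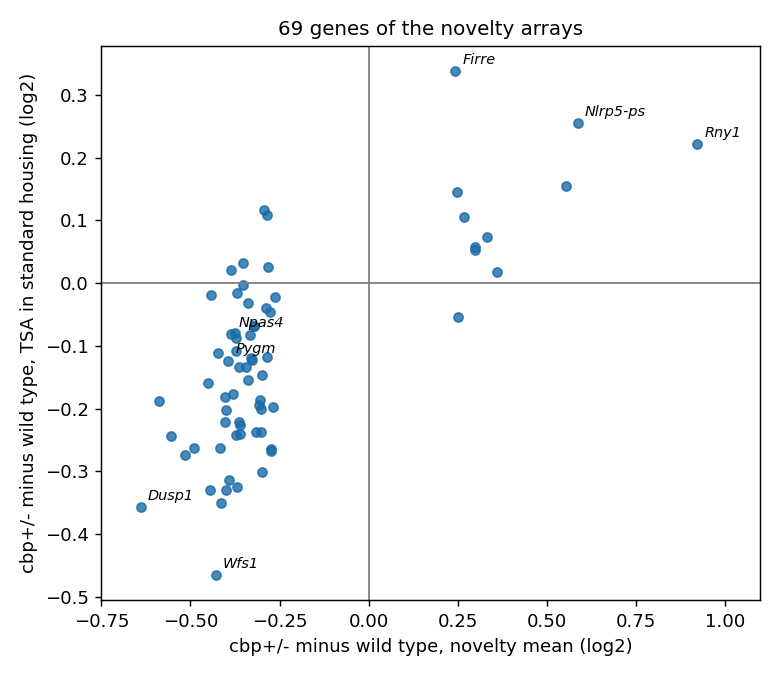
Genotype difference under TSA in standard housing (vertical axis, log2) against that averaged over both novelty groups (horizontal axis, log2) for the 69 genes with an unadjusted p under 0.001 in the novelty arrays. The horizontal position is set by the choice of genes; 53 of the 58 genes left of zero are also below zero on the vertical axis, and 10 of the 11 on the right are above it.

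Protocadherins, adhesion molecules that give neurons individual surface identities, were mostly higher in cbp+/-. Of 34 measured, 29 were higher, 16 of them in all 3 pairs, 0 were lower in all 3 pairs, and the median was 0.156. Of all tested genes 46.4% were higher and 10.7% higher in all 3 pairs. None of the 34 passed adjustment and 11 (32.4%) had an unadjusted p under 0.05, against 5.78% of all genes. Pcdhb3 measured 6.32, 5.83 and 6.91 in wild type and 6.54, 7.18 and 7.24 in cbp+/-, a difference of 0.63 ± 0.17. Pcdhb2 had non-overlapping groups, at 6.53, 6.45 and 6.71 against 6.99, 7.28 and 7.10. Pcdhb10 stood at 5.96, 5.57 and 6.37 against 6.35, 6.33 and 6.73. The pair medians of the list were 0.119, 0.305 and 0.078. In the arrays not compared it had medians of 0.056 after novelty with vehicle, 0.01 after novelty with TSA, 0.169 with vehicle in standard housing and -0.06 in naive mice. These genes are close paralogs in a tandem cluster, so a probe set of one may also read another, and the members are not independent. Krueppel-type zinc finger genes, most of them repressors of transcription and likewise clustered paralogs, gave 202 of 317 higher and a median of 0.044, with 0.019 without replicate 2 and 0.09 without replicate 3. Olfactory and vomeronasal receptor genes, a family of 1178 measured members, had 762 lower (53.5% of all genes were). Their median of -0.035 turned to 0.004 without replicate 2.

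Immediate early transcription factor genes, which neurons switch on within minutes of activity, were mostly lower. Of 24 measured, 20 were lower, 8 of them in all 3 pairs, with a median of -0.1 and pair medians of -0.081, -0.097 and -0.062. Among all tested genes 53.5% were lower and 12.4% lower in all 3 pairs. Unadjusted p values under 0.05 were found in 3 members (12.5%, against 5.78% of all genes). Fosl1 (-0.27 ± 0.08) and Egr3 (-0.27 ± 0.11) were lower, and the nuclear receptor Nr4a3 (0.22 ± 0.10) was higher. Fosl1 was dim, at 4.14, 4.54 and 4.11 in wild type and 3.93, 4.20 and 3.84 in cbp+/-. The array medians were 5.47 to 5.61. Its difference was 0.18 after novelty with vehicle and 0.19 in naive mice. After novelty with TSA it was -0.03, and with vehicle in standard housing -0.16. Egr3 measured 8.17, 7.88 and 7.38 in wild type and 8.09, 7.44 and 7.09 in cbp+/-. None of the most used activity markers had an unadjusted p under 0.05. Fos measured 5.71, 5.34 and 5.23 against 5.29, 5.29 and 5.19, with most of its difference of -0.17 ± 0.20 in pair 1. Arc differed by 0.03 ± 0.12, Npas4 by -0.08 ± 0.13, Egr1 by -0.17 ± 0.12 and the neurotrophin gene Bdnf by 0.02 ± 0.09. In other arrays the immediate early list's median was -0.067 with vehicle in standard housing and 0.036, the other way, in naive mice. After novelty the list's median was -0.034 with vehicle and -0.129 with TSA, and Npas4 differed by -0.39 ± 0.09 averaged over both (adjusted p = 0.209). Among 32 activity-induced effector genes the median was -0.012, with Gadd45a and Vgf, a secreted neuropeptide precursor (-0.26 ± 0.10), at an unadjusted p under 0.05. That is 6.25% of the list, near the 5.78% of all genes.

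CREB binds the cAMP response element, and genes with this element near their start are the classical targets of CREB and CBP. The full element, TGACGTCA, reads the same on both strands. RefSeq promoter windows of 300 bases (250 before and 50 after the start, build GRCm38.p6) were found by symbol for 15614 tested genes, and 424 of these (2.72%) held it, as did 1.79% of all windows in the table. Of 19 listed CREB targets with a window, 5 held the full element: the phosphatase gene Dusp1, the granin genes Chgb and Scg2, the prohormone convertase gene Pcsk1 and the somatostatin gene Sst. Their elements are shown with 20 bases on each side, on the gene's strand, with the element in capitals, because these are the promoters on which a CBP effect at the element would be looked for.
Dusp1, chr17:26508588-26508635, minus strand: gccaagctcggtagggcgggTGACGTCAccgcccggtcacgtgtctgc
Chgb, chr2:132781550-132781597, plus strand: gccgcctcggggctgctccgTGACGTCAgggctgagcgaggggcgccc
Scg2, chr1:79440067-79440114, minus strand: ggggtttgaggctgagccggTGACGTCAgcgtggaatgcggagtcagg
Pcsk1, chr13:75089759-75089806, plus strand: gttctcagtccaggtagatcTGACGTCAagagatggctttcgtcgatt
Sst, chr16:23890865-23890912, minus strand: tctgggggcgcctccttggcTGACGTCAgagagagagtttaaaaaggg
The 5 genes with the element did not share a direction. Dusp1, whose element starts at position -143 from the gene start, measured 8.03, 6.95 and 7.42 in wild type and 8.02, 6.75 and 6.56 in cbp+/-. Its pair differences of -0.01, -0.20 and -0.87 gave -0.36 ± 0.23, and pair 3 carried most of it. After novelty Dusp1 differed by -0.72 with vehicle and -0.56 with TSA (-0.64 ± 0.16 averaged, adjusted p = 0.268). Sst, with its element at -48, measured 11.13, 10.36 and 10.77 against 11.30, 10.29 and 10.81, a difference of 0.05 ± 0.10. Chgb differed by 0.09 ± 0.08, Scg2 by 0.03 ± 0.08 and Pcsk1 by -0.01 ± 0.11. Over all 424 genes with the element the median difference was 0.02, with pair medians of 0.03, 0.048 and -0.014. In the novelty average their median was -0.02. At an unadjusted p under 0.05 under TSA, 21 were higher and 7 lower (6.6% in all). The 15190 genes without the element gave a median of -0.01, with 435 higher and 414 lower at that threshold (5.59%). A match of letters is a description and not a bound site.

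The 27 measured CREB target genes as a list had a median of -0.038, with 17 lower (53.5% of all genes were). Pair medians were 0.1, -0.038 and -0.091. At an unadjusted p under 0.05 were 2 higher and 2 lower members (14.8%, against 5.78% of all genes). The microRNA gene Mir132, induced by CREB in neurons, measured 4.65, 4.78 and 4.12 in wild type and 4.15, 4.23 and 4.02 in cbp+/-, a difference of -0.39 ± 0.14, with an unadjusted p under 0.05. Mir212, transcribed with it, measured 6.88, 7.27 and 6.51 against 6.81, 6.70 and 6.39, a difference of -0.25 ± 0.14. Both were lower in every pair with overlapping groups. Mir132 was dim, with every value below the array medians of 5.47 to 5.61. After novelty with TSA the difference of Mir132 was -0.43, and after novelty with vehicle it was -0.05. With vehicle in standard housing it was -0.09, and in naive mice it was 0.16, the other way. The array reads the transcript of these genes, which need not follow the mature RNAs. The mature 3p strands share their seed (bases 2 to 8, in capitals), so they are shown as 1 seed family (RefSeq, GRCm38.p6).
mmu-miR-132-3p: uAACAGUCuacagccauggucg
mmu-miR-212-3p: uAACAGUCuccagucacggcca
Over the 291 microRNA genes tested the median difference was -0.03, and 19 (6.53%) had an unadjusted p under 0.05, near the 5.78% of all genes.

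Choroid plexus genes, which mark the fluid-secreting epithelium that lies against the hippocampus, stood apart on a single array of the comparison. Ttr, the transthyretin gene, measured 7.41, 6.83 and 8.12 in wild type and 12.21, 6.98 and 7.86 in cbp+/-. The value of 12.21 belonged to cbp+/- replicate 1, and the other 5 arrays overlapped. The difference was 1.56 ± 1.07, and it was -0.05 without the arrays of replicate 1. Kcnj13, a potassium channel of this epithelium, differed by 2.81, -0.07 and 0.10 in pairs 1 to 3, Clic6 by 1.67, 0.09 and 0.26, and Kl, the klotho gene, by 1.36, 0.04 and -0.01. Of the 27 measured choroid plexus genes, 21 were higher in cbp+/- (46.4% of all genes were), with 0 at an unadjusted p under 0.05. In all 3 pairs 3 of them (11.1%) were higher, near the 10.7% of all genes. The list's pair medians were 0.645, -0.178 and 0.007, and its overall median of 0.159 was -0.081 without replicate 1. The mean level of the list was 5.05 to 5.18 on the wild-type arrays, 5.97 on cbp+/- replicate 1, and 4.97 and 5.03 on the other cbp+/- arrays. Wild-type replicate 1 after novelty with TSA, at 6.18, and cbp+/- vehicle replicate 3, at 6.24, were raised as well, and each belongs to 1 of the other genotype comparisons. Without cbp+/- replicate 1 the comparison under TSA had 0 genes past adjustment and 1151 at an unadjusted p under 0.05. With all arrays of replicate 1 left out, the list medians described above were 0.16 for the acetyltransferases, 0.193 for the protocadherins, -0.082 for the immediate early genes and -0.178 for the CA1 markers.

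**Figure D5:**
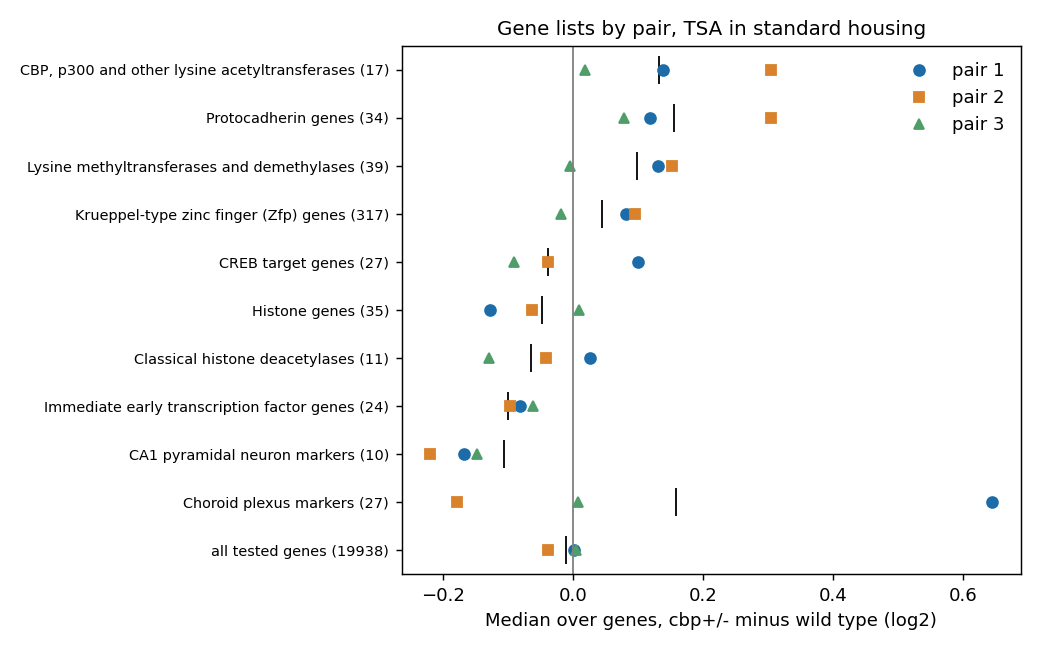
Median genotype difference (cbp+/- minus wild type, log2) of 10 gene lists and of all tested genes in each of the 3 pairs (symbols), with the median of the fitted differences as a black tick; numbers of measured genes are in parentheses. The immediate early and CA1 lists lie below zero and the acetyltransferase and protocadherin lists above it in all 3 pairs, while the choroid plexus list spreads from -0.178 to 0.645.

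Other cell types showed smaller offsets, none with a gene past adjustment. Medians were -0.035 for 18 interneuron markers, -0.071 for 16 astrocyte markers, -0.008 for 19 oligodendrocyte and myelin genes, -0.06 for 10 oligodendrocyte precursor markers, 0.039 for 19 microglia markers, 0.076 for 16 endothelial and pericyte markers and -0.079 for 13 meningeal and fibroblast markers. Their pair medians differed in sign or size: those of the myelin genes were 0.036, 0.167 and -0.203. Immature neuron markers had a median of -0.067, ependymal and cilia markers one of 0.042 and blood cell genes one of -0.072. Genes that mark the neighbouring neocortex, thalamus and striatum had a median of -0.055, which was -0.204 without replicate 1 and 0.054 without replicate 3.

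Among 87 potassium channel genes 54 were lower (53.5% of all genes were), with a median of -0.048. An unadjusted p under 0.05 was found in 7 of them (8.05%, against 5.78% of all genes), 6 lower and 1 higher. Kcnj4, an inward rectifier of forebrain neurons, differed by -0.53, -0.19 and -0.30 in pairs 1 to 3, a mean of -0.34 ± 0.11. Glutamate and GABA receptor subunits had a median of 0.007 over 42 genes with 0 at an unadjusted p under 0.05. Calcium and sodium channel genes had one of 0.022 over 35, with 3 (8.57%, against 5.78% of all genes) at that threshold. These were Cacna1g, described above, and the higher genes Scn3a, a sodium channel (0.30 ± 0.10), and Cacna1a, the P/Q-type calcium channel (0.21 ± 0.10). Of 24 neuropeptide genes 15 were lower (53.5% of all genes were). An unadjusted p under 0.05 was found in 3 of the 24 (12.5%, against 5.78% of all genes). The median of -0.062 turned to 0.023 without replicate 2. Grp, the gastrin-releasing peptide gene, measured 8.20, 7.36 and 8.63 against 7.80, 7.27 and 8.11. Nmb, the neuromedin B gene, differed by -0.43 ± 0.13, and Tac1, the substance P precursor gene, was 0.26 ± 0.11 higher in cbp+/-.

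Housekeeping and stress lists had medians between -0.025 and 0.058. The median was 0.011 for 62 cytosolic ribosomal protein genes, 0.033 for 77 respiratory chain and ATP synthase genes, 0.058 for 20 genes of the unfolded protein response, 0.056 for 15 heat shock and chaperone genes, -0.007 for 25 glucocorticoid-induced genes, -0.025 for 26 interferon-stimulated genes and -0.022 for 18 circadian clock genes. A list of 23 genes that responded to TSA was chosen by an earlier analysis of these same arrays. It is therefore not independent evidence of direction. The list had 17 genes higher in cbp+/- (46.4% of all genes were) and a median of 0.083. It mixes directions: in wild type in standard housing 13 of its genes had a higher mean with TSA than with vehicle and 10 a lower one, and of these 8 and 9 were higher in cbp+/- under TSA. The wild-type mean of Ptpn2 was 6.90 with vehicle and 6.29 with TSA and that of Kmt5b 7.58 and 6.98, while that of Fv1 was 6.14 and 6.96 and that of Rest 5.19 and 5.73. Fv1, a retroviral restriction gene, differed by 0.27 ± 0.13, Rest, a repressor of neuronal genes, by 0.19 ± 0.13 and Kmt5b, a methyltransferase of histone H4 lysine 20, by 0.19 ± 0.13. Rest and Kmt5b had non-overlapping groups, but only just. Rest measured 5.777, 5.674 and 5.743 in wild type against 5.903, 6.06 and 5.788 in cbp+/-. Kmt5b measured 7.044, 6.876 and 7.021 against 7.236, 7.23 and 7.054. Neither had an unadjusted limma p under 0.05. Of all tested genes, 297 (1.49%) had non-overlapping groups with cbp+/- above wild type.

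Many list medians depended on the replicates. Leaving out 1 replicate number turned the sign of the median in 21 of the 39 lists, among them the CREB family, the neuropeptide and receptor genes, the astrocyte, myelin, microglia and choroid plexus markers, and the ribosomal and respiratory chain genes. It kept its sign in the other 18, which include the acetyltransferases, protocadherins, methyltransferases and demethylases, immediate early genes, CA1 markers, deacetylases, histone genes and potassium channels.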

How the data were processed

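Total hippocampal RNA was read on Affymetrix Mouse Gene 1.0 ST arrays. The deposited values are log2 signals per probe set (transcript cluster) after RMA per the submitters' processing notes, and GeneSpring GX 11 was used per the labels' protocols; no source used here names the build of the array annotation. Of 35556 clusters, 21789 had 1 gene symbol in the platform annotation, 1621 several and 12146 none; for genes with several clusters the one with the highest mean was kept, which left 19938 genes. Array medians were 5.47 to 5.61 on the 6 arrays compared, and the number of arrays limits the precision.

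Differences were tested two-sided with limma 3.58.1 in R 4.3.3 on 18 arrays (6 groups numbered 1 to 3) with the replicate number as a block, and Benjamini-Hochberg adjustment over all genes at 0.05. The vehicle controls in standard housing came from a fit to the 24 injected arrays with no block. The pairing was checked before fits were compared: after subtracting group means, arrays with the same number had correlations of 0.52 to 0.80 (45 pairs), arrays with other numbers -0.63 to -0.07, and the 3 pairs compared 0.70, 0.52 and 0.65. The block lowered the median residual SD from 0.192 to 0.13. The labels call the replicates biologically independent, and p-values measure the spread between these pools.

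The comparison, the 39 gene lists and the rule for named genes were chosen with earlier results of these data known. The rule took, per direction, the genes past the threshold, or up to 8 with the smallest p and 1 sign in 3 pairs, up to 4 members per list with the largest difference, and a fixed set of activity, chromatin and target genes; predicted genes without a name were only counted. Further members and genes with 1 sign in 5 comparisons were named after their values were seen. The test was checked on simulated data with 200 changed genes. The alternatives were no block, other sets of arrays, array weights, an intensity trend, no dim genes, repeated quantile normalization, mean of clusters and leaving out replicates. The 13767 clusters without a single name were tested apart, with 0 at an adjusted p under 0.05 and 707 (5.14%) at an unadjusted p under 0.05.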

Additional observations from a re-analysis of the deposited data

How the results depend on the processing

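The count of 0 genes between genotypes under TSA held in every alternative but array quality weights, which gave 15. Without the replicate block it was 0, with 226 genes at an unadjusted p under 0.05 in place of 1152, and it was 0 with each replicate number or array left out, with only the 6 arrays compared (617 at an unadjusted p under 0.05) and with all 28 arrays (395). With array weights 1 gene passed after novelty with vehicle. For the novelty average the count of 2 became 0 without the replicate block, 4 without dim genes and 0 to 0 with a replicate number left out. The block changed no other count of calls. Differences near zero changed sign. Under array weights Arc was -0.0769, Creb1 -0.0928, Hdac1 -0.0638, Hdac2 -0.0326 and Sox11 0.0909, and with quantile normalization repeated Arc was -0.0119, Creb1 -0.0156 and Hdac1 -0.0036. With a replicate number or array left out, differences ran from -0.0543 to 2.48 for Ttr, -0.211 to 0.097 for Sox11, -0.32 to 0.0248 for Fos, -0.0959 to 0.119 for Creb1, -0.0582 to 0.167 for Crem, -0.0458 to 0.13 for Arc, -0.0312 to 0.137 for Hdac1, -0.198 to 0.0371 for Npas4, -0.0463 to 0.29 for Plag1 and -0.0557 to 0.108 for Bdnf. The cause was not tested.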
